A study of Homo sapiens
Mus musculus with 8 samples.

Results

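The cytotoxic granule genes described here were 10 of the 32738 human genes in the count tables, chosen by name: the granzymes GZMA, GZMB, GZMH, GZMK and GZMM, the pore-forming proteins PRF1 (perforin) and GNLY (granulysin), the granule proteoglycan SRGN (serglycin), the granule membrane protein NKG7 and the cystatin CST7. They were compared between TALL-104 and Jurkat, both human T cell leukaemia lines, in each 10x Genomics kit and from cell to cell. A barcode counted as human with at least 1000 UMIs (unique molecular identifiers, each standing for one captured transcript) of which over 80% came from human genes. A human barcode counted as TALL-104 when it held at least 1 UMI of CD8A or CD8B and when CD8A, CD8B, NKG7 and CST7 together made up at least 0.1% of its UMIs. It counted as Jurkat when that sum was under 0.02%. NKG7 and CST7 thus helped to define the cells, so they are given as levels with no test.

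All libraries came from an equal mixture of 4 untreated lymphocyte lines: Jurkat, TALL-104 and the mouse lines EL4 and IVA12. TALL-104 had been grown with IL-2 and Jurkat without it, so line and culture medium cannot be told apart, and each line stands for a single cell line and not for primary T cells. The libraries analysed were 1 of the 3′ v2 kit (replicate 2, preparation A of the mixture), 2 of the 5′ v1 kit (preparation B) and 4 of the 3′ v3 kit (replicates 1 and 3 from preparation F, replicates 2 and 4 from preparation G), and the other 3′ v2 library, replicate 1, was not analysed here. Because each kit had its own preparations, kit and preparation cannot be told apart, and libraries of 1 preparation share its cells, so p-values over libraries measure a spread that may be largely technical.

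Cytotoxic T cells and natural killer cells kill by releasing secretory lysosomes, the cytotoxic granules, onto a bound target. Perforin opens the target's membrane, granzymes are serine proteases that then cleave proteins inside the target, and granulysin lyses microbial and tumour membranes. Serglycin carries chains of sulphated sugars that hold the basic granzymes and perforin inside the granule. NKG7 sits in the granule membrane and CST7 (cystatin F) inhibits the cathepsins that activate granzyme precursors. GZMA and GZMK lie next to each other in one granzyme cluster and GZMB and GZMH in another, while GZMM lies in a cluster apart from both.

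By this rule the 7 libraries held 269 TALL-104 and 8009 Jurkat cells among 11845 human barcodes. TALL-104 cells numbered 3 in the 3′ v2 library, 16 and 5 in the 5′ v1 libraries, and 51, 29, 90 and 75 in the 3′ v3 libraries, while Jurkat cells numbered 285 to 3023 per library. Libraries held 24790710 to 251164949 UMIs in all. The median TALL-104 cell held 1864 to 3526 UMIs and the median Jurkat cell 10078 to 18581. Shares of cells are therefore given after every cell was thinned to 1000 UMIs, except where unthinned counts are named. The 8 TALL-104 markers outside the rule, among them CCL5, IL2RB and NCAM1, summed to 2379 to 12719 CPM (counts scaled to 1000000 human UMIs) in TALL-104 and to 17.7 to 63.8 CPM in Jurkat. The 12 Jurkat markers, among them TAL1 and SOX4, summed to 2316 to 4061 CPM in Jurkat and to 0 to 691 CPM in TALL-104. Of the TALL-104 markers 4 to 8 were detected in TALL-104, and of the Jurkat markers CD1C, RAG1 and CD4 had no UMI in it. In Jurkat, CD4 itself reached no more than 3.47 CPM. Any pair of libraries shared at most 2 of these cell barcodes. At the thresholds, TALL-104 cells of the 7 libraries began at rule sums of 0.103% to 0.284% and barcodes left unassigned for their rule sum reached 0.0999%.

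In the 3′ v3 libraries the 10 genes together took 0.819, 0.633, 0.758 and 0.665% of the human UMIs of TALL-104 cells (replicates 1 to 4), against 0.0149, 0.0103, 0.0139 and 0.0113% in Jurkat. NKG7 and CST7, which assigned the cells, are in that sum, so part of the gap was set by the rule. The 8 other genes took 0.420, 0.354, 0.388 and 0.346% in TALL-104 and 0.00990, 0.00646, 0.00931 and 0.00741% in Jurkat. UMIs were read from one transcript end, so levels were not divided by gene length. As mean ± SD over the 4 libraries, TALL-104 held 2640.2 ± 389 CPM of NKG7, 1905 ± 206 CPM of GZMA, 775 ± 179 CPM of CST7, 568 ± 149 CPM of SRGN and 489.6 ± 15.3 CPM of GZMK. It held 410.2 ± 49.3 CPM of GZMM, 270.0 ± 44.7 CPM of PRF1, 85.3 ± 86.2 CPM of GNLY, 21.1 ± 22.3 CPM of GZMB and 20.8 ± 12.7 CPM of GZMH. In that order the range of SRGN over the 4 libraries overlapped with those of CST7 and GZMK, and the ranges of GNLY, GZMB and GZMH overlapped with each other. Every other pair of neighbours was separated. Of the 5 granzymes, GZMA, GZMK and GZMM thus made up most of the granzyme UMIs of TALL-104.

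**Figure D1:**
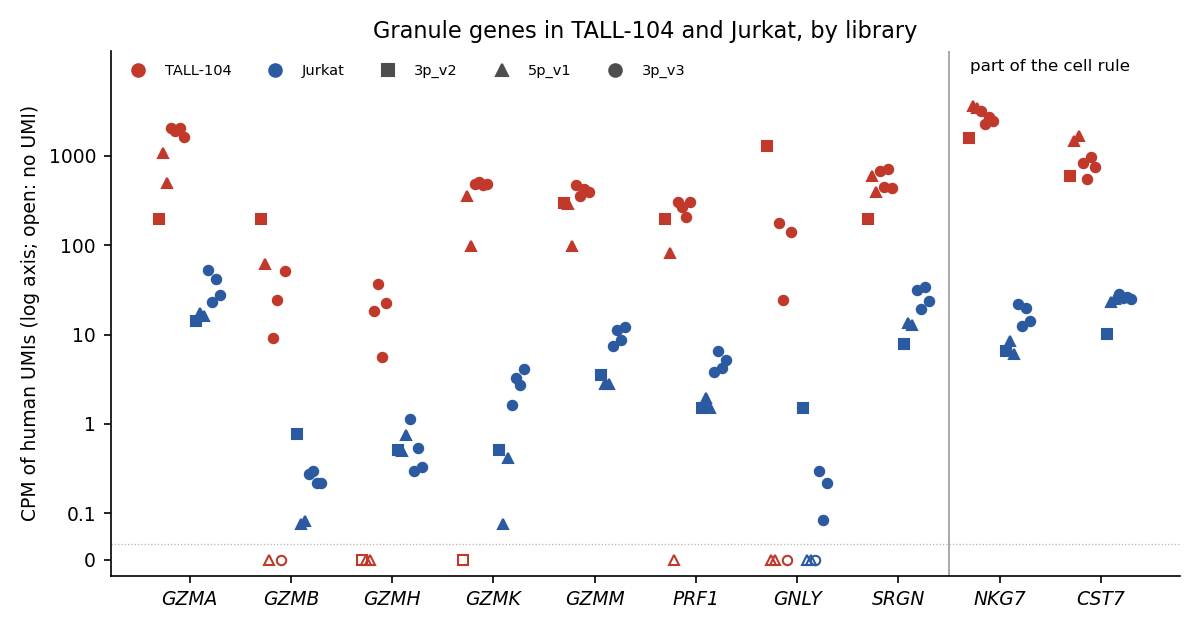
Level of each granule gene in TALL-104 (red) and Jurkat (blue), as CPM of human UMIs on a log axis, 1 point per library and line, with squares for 3′ v2, triangles for 5′ v1, circles for 3′ v3 and open points at the bottom for libraries with no UMI. GZMA, GZMM and SRGN stood above every Jurkat library in all 7 libraries, while GZMB, GZMH, GZMK, PRF1 and GNLY had no UMI in at least 1 TALL-104 library. The share of all genes separated in this way was not counted.

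GZMA (ENSG00000145649) encodes granzyme A, a tryptase, and was the most abundant granzyme of this line in 3′ v3 and 5′ v1. In TALL-104 it stood at 2065, 1880, 2052 and 1624 CPM in 3′ v3 replicates 1 to 4, at 1075 and 493 CPM in 5′ v1 replicates 1 and 2, and at 198 CPM in 3′ v2. In Jurkat the same libraries gave 53.3, 23.3, 42.3 and 27.9 CPM in 3′ v3, 17.5 and 16.0 CPM in 5′ v1 and 14.2 CPM in 3′ v2. The lines did not overlap, and the lowest TALL-104 level, in 3′ v2, rested on 2 UMIs in 3 cells. The share of all genes without overlap between the lines was not counted, here or for the other members. The share of TALL-104 cells with a GZMA UMI among 1000 was 76.5, 79.3, 82.2 and 72.0% in 3′ v3, against 3.50, 3.86, 3.74 and 4% of Jurkat cells and at most 0.780% of mouse cells, which carry no human gene.

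GZMK (ENSG00000113088), the gene next to GZMA, encodes a second tryptase. It stood at 489, 509, 472 and 488 CPM in TALL-104 of the 3′ v3 libraries and at 352 and 98.6 CPM in 5′ v1. The 3′ v3 levels rested on 53, 42, 84 and 86 UMIs. Counting error at such counts is wider than their spread, so their evenness is not read as a trait of the gene. No GZMK UMI was found in the 3 TALL-104 cells of 3′ v2, which allows up to 297 CPM. The 38 barcodes of that library that passed the rule sum without a CD8 UMI held 2 GZMK UMIs, or 18.1 CPM, against 294 and 219 CPM in such barcodes of 5′ v1 and 311 to 378 CPM in 3′ v3. Jurkat held 1.64, 3.29, 2.74 and 4.12 CPM in 3′ v3 and 0.0762 and 0.414 CPM in 5′ v1, so the lines were far apart in both kits. GZMM (ENSG00000197540), a granzyme that cleaves after methionine, was measured at 470.1, 352, 422 and 397 CPM in TALL-104 of 3′ v3, 289.5 and 98.6 CPM in 5′ v1 and 297 CPM in 3′ v2. Its Jurkat levels were 7.37, 11.4, 8.64 and 12.3 CPM in 3′ v3 and 2.82 and 2.82 CPM in 5′ v1, all below the TALL-104 levels.

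GZMB (ENSG00000100453), the aspartase that activates caspases, and its neighbour GZMH (ENSG00000100450), a chymase, were scarce in 3′ v3. TALL-104 cells of the 4 3′ v3 libraries held 1, 2, 0 and 9 UMIs of GZMB and 2, 3, 1 and 4 UMIs of GZMH, or 9.22, 24.3, 0 and 51.1 CPM and 18.4, 36.4, 5.62 and 22.7 CPM. The 5′ v1 libraries gave 3 and 0 UMIs of GZMB and none of GZMH, and the 3 cells of 3′ v2 gave 2 and 0. The 2 GZMB UMIs of 3′ v2 came to 198 CPM, the level of GZMA in that library. Its 38 barcodes that passed the rule sum without a CD8 UMI held GZMB at 163 CPM. Such barcodes held 5.67 to 30.1 CPM in 3′ v3 and 24.5 and 329 CPM in 5′ v1, the last mostly from 1 cell. Both genes lay in the range of a few UMIs per library, and Jurkat held at most 0.760 CPM of GZMB and 1.13 CPM of GZMH. GZMB and GZMH are paralogs of similar sequence, and reads that fit both could have been assigned to either or dropped, so their split is uncertain.

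PRF1 (ENSG00000180644), perforin, stood at 304, 267, 208 and 301 CPM in TALL-104 of 3′ v3 and at 82.7 and 0 CPM in 5′ v1, where replicate 2 had no UMI in 5 cells (up to 296 CPM allowed). Jurkat held 3.77, 6.58, 4.27 and 5.21 CPM in 3′ v3 and 1.94 and 1.49 CPM in 5′ v1. Within 3′ v3 every TALL-104 library lay far above every Jurkat library. GNLY (ENSG00000115523), granulysin, was uneven, at 175, 24.3, 0 and 142 CPM in TALL-104 of 3′ v3, with no UMI in either 5′ v1 library and 13 UMIs in 1 of the 3 cells of 3′ v2. Jurkat cells of 3′ v3 gave 0, 1, 5 and 2 GNLY UMIs, at or near what free RNA would give in replicate 3 (6.06 UMIs, estimated as described for the Jurkat levels).

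SRGN (ENSG00000122862), the core protein that packs granzymes, was measured at 673, 449, 719.5 and 432 CPM in TALL-104 of 3′ v3, 599.7 and 394 CPM in 5′ v1 and 198 CPM in 3′ v2. Preparation F (replicates 1 and 3) stood above preparation G (replicates 2 and 4), and so it did for GZMA and GZMM, but not for GZMK or PRF1. NKG7 and CST7, which chose the cells, had the same order. The share of all genes ordered in this way was not counted. The median mitochondrial share of TALL-104 cells was 7.08% and 4.86% in F and 9.73% and 9.21% in G, and its part in these levels was not tested. In Jurkat it was 6.26% and 4.75% in F and 10.1% and 10.2% in G. Jurkat held 31.5, 19.2, 34.3 and 23.9 CPM of SRGN in 3′ v3, the same order of preparations, and 13.5 and 12.8 CPM in 5′ v1. GZMA had that order in Jurkat too, while GZMM, GZMK and PRF1 stood higher in preparation G there.

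Of the members used by the cell rule, NKG7 (ENSG00000105374) stood at 3143, 2244, 2726 and 2447 CPM in TALL-104 of 3′ v3, 3639 and 3451 CPM in 5′ v1 and 1586 CPM in 3′ v2. CST7 (ENSG00000077984) stood at 839, 546, 972 and 744 CPM, 1448 and 1676 CPM and 595 CPM in the same libraries. Jurkat held 17.2 ± 4.56 CPM of NKG7 and 26.3 ± 1.38 CPM of CST7 (SD, n = 4 libraries of 3′ v3). A barcode whose rule sum reached 0.02% could not count as Jurkat, so part of these gaps was set by the rule. When cells were assigned from CD8A and CD8B alone (at least 0.1% of UMIs for TALL-104, under 0.02% for Jurkat), only 9 TALL-104 cells remained in 3′ v3 and Jurkat, now including barcodes with no CD8 UMI, held 207 CPM of NKG7 and 96.5 CPM of CST7.

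Over all kits, 4 of the 8 members outside the cell rule passed the filter on low counts, and all 4 were higher in TALL-104 (edgeR's quasi-likelihood test on summed UMIs with the library as block, Benjamini-Hochberg adjusted p under 0.05). By the same edgeR fit, on the log2 scale and as estimate ± SE, PRF1 rose by 5.69 ± 0.24 (adjusted p = 1.50e-121), GZMM by 5.46 ± 0.26 (2.05e-98), GZMA by 5.32 ± 0.33 (5.93e-55) and SRGN by 4.38 ± 0.28 (7.58e-53). Of all 9106 genes tested, 41.4% were called, 13.6% higher and 27.8% lower in TALL-104, and the median log2 difference over all of them was -0.33. The filter kept a gene that reached 5.68 CPM in at least 7 sums. GZMA and SRGN reached that in every Jurkat library. GZMM did so in 4 Jurkat libraries and PRF1 in 1, so both passed only with the help of TALL-104, and the filter favoured a higher result for them. GZMB, GZMH, GZMK and GNLY did not pass the filter. With no filter their log2 estimates, which depend on the prior count where libraries are at 0, were 6.33 ± 0.71, 4.41 ± 0.71, 7.59 ± 0.29 and 8.72 ± 0.49. With cells assigned from CD8A and CD8B alone, which left 9 TALL-104 cells, 3 members were no longer called, at log2 differences of 0.84 for GZMM, 1.84 for PRF1 and 1.44 for SRGN, while GZMA stayed called at 1.93. Jurkat then included the barcodes that held NKG7 or CST7 but no CD8 UMI.

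Within 3′ v3, the best covered kit, 5 members passed the filter and all 5 were called higher in TALL-104 by edgeR's test, where 17.0% of 9760 genes were called higher and 23.5% lower. GZMK rose by 7.47 ± 0.21 on the log2 scale, PRF1 by 5.81 ± 0.25, GZMA by 5.71 ± 0.23, GZMM by 5.43 ± 0.20 and SRGN by 4.35 ± 0.18 (estimate ± SE, n = 4 libraries). The SE of edgeR fits, here and elsewhere, is derived from the test's F and draws on dispersion shared over genes. It is not the spread of the libraries. The largest adjusted p was 2.25e-118 by edgeR's quasi-likelihood test. The median log2 difference over all genes tested was -0.19. GZMA, GZMM and SRGN would have passed the filter on Jurkat alone, while GZMK and PRF1 passed through TALL-104, the line where they are high. GZMK reached the limit in no Jurkat library, so its direction was fixed by the filter. PRF1 reached it in 1 Jurkat library and could hardly have come out lower. With cells assigned from CD8A and CD8B alone, GZMM, PRF1 and SRGN lost their calls here too, with adjusted p of 0.457, 0.114 and 0.117 by edgeR, since all 9 cells of that rule are from 3′ v3. Per library, as the ratio of CPM with an exact 95% counting interval, GZMA in TALL-104 was 38.7, 80.5, 48.5 and 58.2 times its Jurkat level in replicates 1 to 4. GZMK was 297, 155, 172 and 118 times and SRGN 21.4, 23.4, 21.0 and 18.1 times the Jurkat level. The intervals of the GZMA ratio in replicate 1 (33.5 to 44.6) and in replicate 2 (61.0 to 107) did not overlap, and neither did those of replicates 1 and 4 for GZMK and GZMM, whereas the 4 intervals overlapped for SRGN and for PRF1. These intervals do not cover the spread between cells. In replicate 1 the top 3 of 1515 Jurkat cells held 28.6% of the Jurkat GZMA UMIs, with 186 in 1 cell, whereas no cell of replicate 2 held more than 4.

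**Figure D2:**
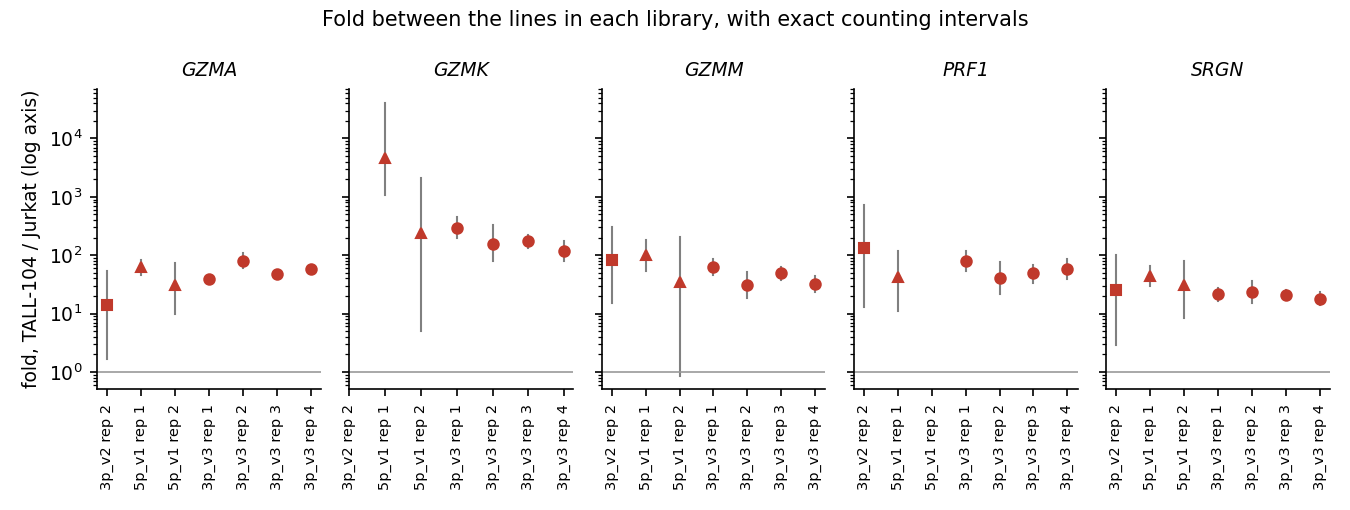
Ratio of the TALL-104 level to the Jurkat level (log axis) in each library for the 5 members with enough counts, with exact 95% intervals for counting error alone and a line at 1. No ratio is drawn for GZMK in 3′ v2 or PRF1 in 5′ v1 replicate 2, where TALL-104 had no UMI. The ratios drawn stood above 1, and the interval for GZMM in 5′ v1 replicate 2, from 1 UMI, reached below it.

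Within 5′ v1, which had 21 TALL-104 cells in 2 libraries, 5 members passed the filter and 4 were called higher, where 1.43% of 11198 genes were. GZMK rose by 9.93 ± 1.12, GZMM by 5.94 ± 1.01, GZMA by 5.03 ± 0.61 and SRGN by 4.86 ± 0.58 on the log2 scale, with adjusted p of 7.08e-16, 7.14e-07, 5.84e-14 and 3.52e-14 by edgeR's quasi-likelihood test. PRF1, with an estimate of 4.63 ± 1.70, was not called (adjusted p = 0.140), though DESeq2 gave 4.46 with adjusted p = 0.00947. The median log2 difference over all genes tested in this kit was -1.35. GZMK and PRF1 again passed the filter (1.65 CPM in 2 sums) only with TALL-104, so GZMK could be tested only as higher. Its estimate rested on 17 and 1 TALL-104 UMIs and on 2 and 5 Jurkat UMIs, and its ratio in replicate 1 had an interval of 1095 to 41154.

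Whether the gap between the lines differed between 3′ v3 and 5′ v1 was tested as an interaction of line and kit, and none of the 5 members tested was called, where 0.171% of 9384 genes were. GZMK came closest, with a difference of log2 gaps, 3′ v3 less 5′ v1, of -2.59 ± 0.69 (adjusted p = 0.0732, edgeR). GZMK reached the filter's limit in no Jurkat library of either kit, so it entered the test through TALL-104. Its gap in 5′ v1 rested on 2 and 5 Jurkat UMIs. The difference turned to 0.79 without 5′ v1 replicate 1, the library with 16 of the 21 cells. It was called at -4.13 without 5′ v1 replicate 2 (adjusted p = 0.00115, edgeR). Either fit leaves 1 library of 5′ v1, which is then assumed to vary like those of 3′ v3. In TALL-104 alone, 6 members were tested between the kits and none was called, where 3.20% of 1937 genes were. The estimate of GZMA in 3′ v3 over 5′ v1 was 1.22 ± 0.39 on the log2 scale (adjusted p = 0.0809, edgeR), that of PRF1 2.09 ± 0.68 (0.0878) and that of SRGN 0.19 ± 0.41 (0.850). With 2 small libraries on one side, these values do not show that the kits measured the genes alike.

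Once thinned to 1000 UMIs, most TALL-104 cells of 3′ v3 still held GZMA, while GZMM and PRF1 were found in a minority of cells in each library. For GZMA the exact (Clopper-Pearson) 95% interval ran from 60.3% to 92.0% in replicate 2, with 29 cells, and from 72.7% to 89.5% in replicate 3, with 90. Unthinned, 92.2, 96.6, 94.4 and 93.3% of TALL-104 cells held GZMA, and 31.4, 18.6, 31.8 and 16.4% of Jurkat cells, which were several times deeper. SRGN was found in 43.1, 58.6, 53.3 and 33.3% of thinned TALL-104 cells and 3.89, 2.81, 3.54 and 3.09% of thinned Jurkat cells. The shares of PRF1 were 29.4, 20.7, 13.3 and 26.7% and 0.264, 1.05, 0.629 and 0.686%, and those of GZMM 29.4, 20.7, 21.1 and 30.7% and 0.792, 3.16, 0.860 and 2.06%. In mouse cells of these libraries at most 0.217% held SRGN, 0.115% PRF1 and 0.227% GZMM, at median depths of 23395 to 27403 UMIs before thinning.

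Jurkat was not free of these transcripts. GZMA gave 1556, 78, 2497 and 257 UMIs and SRGN 919, 64, 2025 and 220 UMIs in Jurkat of 3′ v3. Free RNA was estimated from the mouse UMIs found in Jurkat barcodes, scaled by each gene's ratio to mouse UMIs in barcodes under 100 UMIs. It came to 11.3, 1.55, 166 and 6.75 UMIs of GZMA, or at most 6.65% of those found, and to at most 3.65% for SRGN, 13.5% for PRF1 and 19.5% for GZMK. The highest of these shares came from replicate 3, where the median Jurkat cell carried 3.66% mouse UMIs and the median TALL-104 cell 15.9%. The estimate assumes that free mouse and human RNA enter barcodes in one ratio, which was not tested.

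In 3′ v3, part of the Jurkat signal sat in shallow barcodes. Jurkat cells under 5000 UMIs made up 8.38, 13.7, 2.48 and 14.2% of Jurkat cells in 3′ v3 replicates 1 to 4. They held GZMA at 179.5, 38.3, 413 and 245 CPM, above the 52.4, 22.9, 41.2 and 20.0 CPM of deeper Jurkat cells in each library. The same held in 4 of 4 libraries for GZMK, GZMM and PRF1, and in 3 of 4 for SRGN. Some of these levels rested on few UMIs, such as 7 of GZMK in 1 cell of replicate 1 and 2 of GZMM in replicate 2. The share of all genes with this order was not counted. In 5′ v1 the order varied, with 6.80 and 22.7 CPM of GZMA in shallow cells, each from 2 UMIs, against 17.6 and 15.9 CPM in deeper ones. No GZMM UMI was found in the shallow cells of 5′ v1. A Jurkat barcode of that depth held no UMI of the 4 rule genes, so NKG7 and CST7 were at 0 in them by construction. The rule cannot tell such a barcode from a TALL-104 cell in which no rule gene was captured. The median TALL-104 cell of 3′ v3 held 1922 to 2882 UMIs. Markers of neither line were read in the shallow barcodes, and whether some are TALL-104 cells was not tested. These barcodes supplied 2.51, 5.13, 2.96 and 30.7% of the GZMA UMIs of Jurkat in 3′ v3 replicates 1 to 4, most in replicate 4. Of the GZMK UMIs of Jurkat they held 7 of 48, 4 of 11, 5 of 162 and 19 of 38. Without them the 3′ v3 log2 differences were 5.85 for GZMA, 7.85 for GZMK, 5.55 for GZMM, 5.97 for PRF1 and 4.42 for SRGN, all still called.

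**Figure D3:**
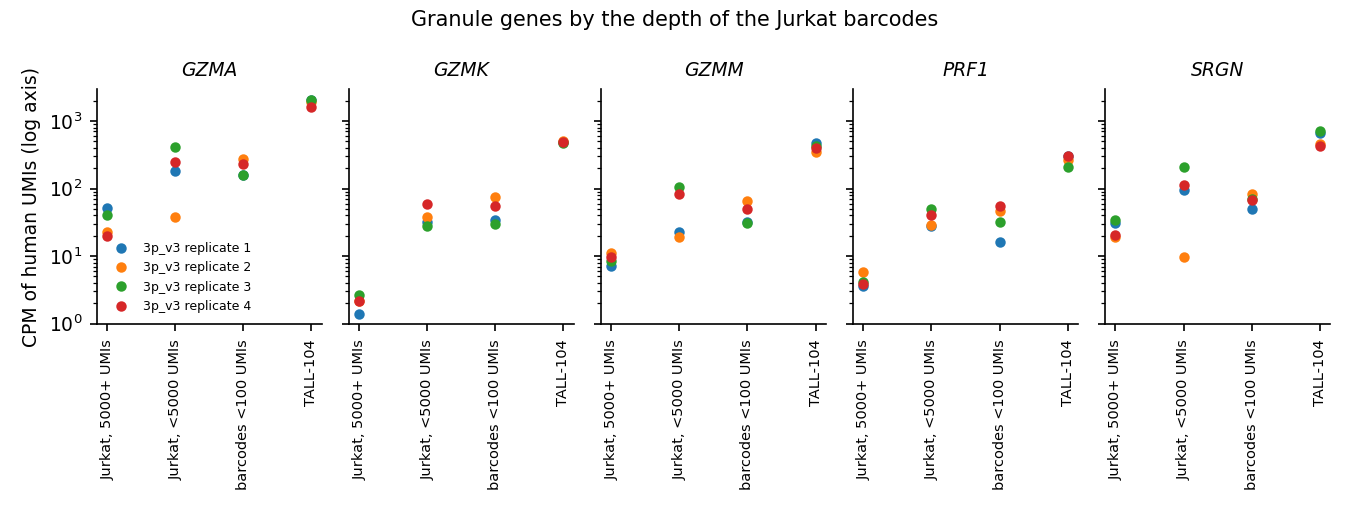
Level of 5 members, as CPM of human UMIs on a log axis, in Jurkat cells with 5000 UMIs or more, in Jurkat cells with fewer, in barcodes under 100 UMIs and in TALL-104 cells of the 4 libraries of 3′ v3, 1 point per library. Shallow barcodes counted as Jurkat lay above deep ones for GZMA, GZMK, GZMM and PRF1 in all 4 libraries, and TALL-104 lay highest. The rule cannot tell such shallow barcodes from TALL-104 cells in which no rule gene was captured.

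The need for a CD8 UMI set aside most barcodes that passed the sum. Of 2670 human barcodes with a rule sum of at least 0.1%, 10.1% held a CD8A or CD8B UMI, and 237 of the 269 held exactly 1. The other 2401 were of like depth, with medians of 1931 to 2786 UMIs. In 3′ v3 they held GZMA at 1982, 1468, 1721 and 1435 CPM, GZMK at 378, 341, 311 and 313 CPM, GZMM at 408, 449, 344 and 353 CPM, PRF1 at 255, 334, 278 and 320.3 CPM and SRGN at 679, 444, 572 and 361 CPM. GZMA and GZMK lay below the TALL-104 level of the same library in all 4 libraries, while PRF1 lay above it in 3 of 4. Counting these barcodes as TALL-104 gave 3′ v3 log2 differences of 5.70 for GZMA, 7.19 for GZMK and 4.39 for SRGN, and called PRF1 in 5′ v1 at 5.81 (adjusted p = 3.68e-23, edgeR).

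From cell to cell, the members were compared in the TALL-104 cells of 3′ v3, each thinned to 1000 UMIs (51, 29, 90 and 75 cells, none left out as shallower). The Fano factor, variance over mean, is 1 for Poisson sampling of a uniform population. SRGN stood at 1.00, 0.575, 1.01 and 0.901 in replicates 1 to 4 and PRF1 at 0.920, 1.08, 1.25 and 1.03. GZMA had Fano factors of 1.70, 1.85, 1.19 and 1.18 around means of 1.94, 1.93, 1.96 and 1.56 UMIs per cell. GZMK had 1.91, 2.99, 1.56 and 1.47 around means of 0.490, 0.517, 0.433 and 0.467, and was the only member above the 90th percentile of genes of at least 0.1 mean UMIs (1.34, 1.41, 1.26 and 1.28) in all 4 libraries. The genes behind that percentile were not matched on mean and include sparser ones, so it may be too low a mark for a gene of this mean. A GZMK UMI was found in 27.5, 20.7, 26.7 and 32.0% of cells, where Poisson sampling at the same mean gives 38.7, 40.4, 35.2 and 37.3%. GZMM ranged from 0.821 to 1.56. The spread of NKG7 and CST7 is conditioned by the rule that chose the cells and is not read here.

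**Figure D4:**
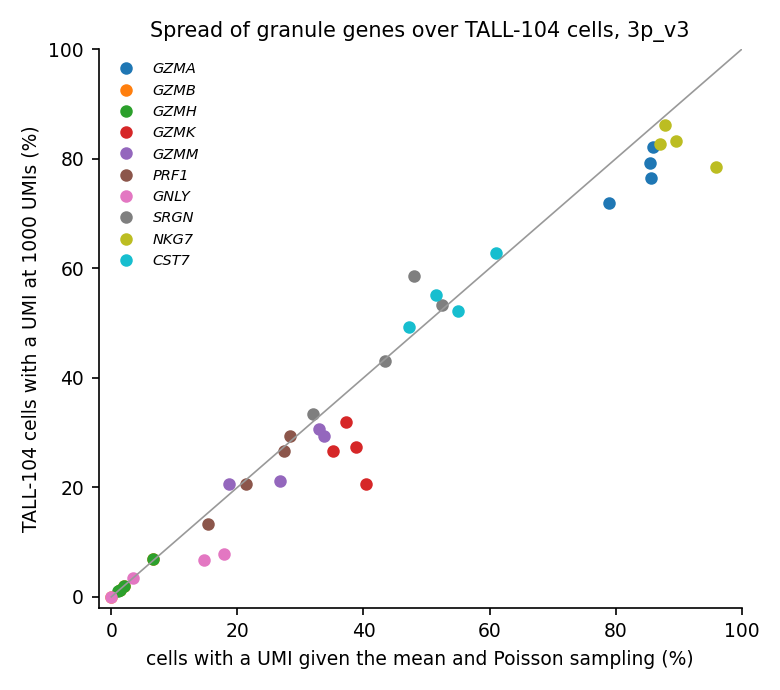
Share of TALL-104 cells with a UMI of each member at 1000 UMIs per cell against the share Poisson sampling gives at the same mean, in percent, 1 point per 3′ v3 library, with a line at equality. GZMA and GZMK lay below the line in all 4 libraries and GNLY in replicates 1 and 4, while PRF1 lay near it, as did SRGN except in replicate 2, where it lay above. NKG7 and CST7 chose the cells, so their points are shaped by the rule.

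GNLY had Fano factors of 4.57 in replicate 4 and 3.47 in replicate 1, but 1.00 in replicate 2. Before thinning, a GNLY UMI was found in 5, 1, 0 and 6 TALL-104 cells of 3′ v3 replicates 1 to 4, which held 19, 2, 0 and 25 UMIs. A single cell held 9 of the 19 in replicate 1 and 13 of the 25 in replicate 4, and all 13 of 3′ v2 came from 1 cell. With barcodes lacking a CD8 UMI included, 22, 22, 22 and 31 of 638, 243, 1053 and 595 cells held GNLY, and the top cell of replicate 4 held 60 of 136 UMIs. In replicates 1 to 3 of that wider set the top cell held 14.5, 16.0 and 22.0% of the GNLY UMIs. GZMB was found in 8, 11, 11 and 24 of those cells. In replicate 4, 9 of the 31 GNLY-positive cells also held GZMB (29.0%), against 2.66% of the others. In replicates 1, 2 and 3 the cells with both numbered 1, 2 and 1, or 4.55, 9.09 and 4.55% of GNLY-positive cells against 1.14, 4.07 and 0.970% of the others. These counts and shares are of unthinned cells of unequal depth, and the part of depth in the overlap was not tested. No test was made of this overlap, since cells of a library are not replicates.

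**Figure D5:**
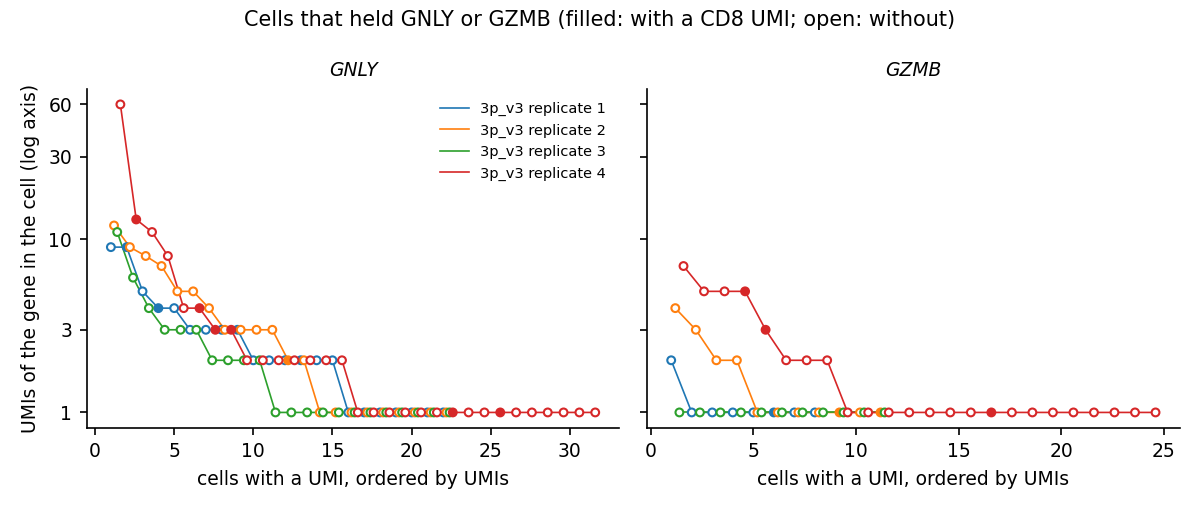
UMIs of GNLY (left) and GZMB (right) per cell, log axis, for each cell with at least 1, ordered within its 3′ v3 library, with filled points for cells with a CD8 UMI and open points for those without. GNLY reached 60 UMIs in 1 cell of replicate 4, while no cell held more than 7 UMIs of GZMB.

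Across thinned TALL-104 cells of 3′ v3, the Spearman correlation between members was low, as sparse counts allow. The pair with the highest mean, GZMA and GZMK, averaged 0.29 over 4 libraries (0.18 to 0.40). Close to it came GZMK and NKG7 at 0.25 (-0.08 to 0.45) and GZMA and NKG7 at 0.24 (0.04 to 0.49), though NKG7 chose the cells. The remaining pairs lay nearer 0 or below it, such as GZMA and PRF1 at 0.02 (-0.06 to 0.11) and GZMK and PRF1 at 0.02 (-0.08 to 0.17). With barcodes lacking a CD8 UMI, GZMA and GZMK gave 0.20 (0.15 to 0.28), below GZMK and NKG7 at 0.22 (0.14 to 0.27). Cells of a library share its preparation and run, and these values are descriptions, of 29 to 90 TALL-104 cells per library and of 243 to 1053 in the wider set. The 5 genes, members aside, whose pattern over cells was most like the summed granzymes, perforin and granulysin were MALAT1 (mean coefficient 0.28), CCL5 (0.24), APOBEC3G (0.23), CCL4 (0.22) and B2M (0.20), of 727 genes ranked. They were picked as the largest values in these same cells. How high the top of 727 unrelated genes would reach by chance was not estimated, so no link to the granule genes is read from them. MALAT1, a nuclear RNA, ranged from -0.02 in replicate 4 to 0.50 in replicate 2, whereas CCL4 stayed between 0.15 and 0.26.

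Other genes that make, load, move or control these granules numbered 74 on a list grouped by role. Of these, 49 passed the filter over all kits, 24 were called higher and 8 lower in TALL-104, with a median log2 difference of 0.68, beside the 13.6% and 27.8% of all genes given with the members. Within 3′ v3, 62 passed, 39 were higher and 6 lower, beside 17.0% and 23.5% of all genes. Genes that passed the filter only with TALL-104 could hardly come out lower where few Jurkat libraries reached its limit. VPS33B, at the limit in 6 of 7 Jurkat libraries over all kits, had an estimate of -0.39 and was not called. Among listed genes that would have passed on Jurkat alone, 18 were higher and 8 lower of 42 over all kits, and 23 and 6 of 46 in 3′ v3. The shares higher and lower among all genes that would have passed on Jurkat alone were not counted. These counts therefore have no share to stand beside. Of 10 transcription factors, 5 were tested over all kits. RUNX3 (3.61) and IRF1 (0.90) would have passed on Jurkat alone, and both were higher. BHLHE40 (5.80 ± 0.28, log2 ± SE), ID2 (5.23 ± 0.24) and STAT4 (4.86 ± 0.35), the last a mediator of IL-12 signals, passed with the help of TALL-104. In 3′ v3, 6 of the 9 tested passed only with TALL-104, among them EOMES at 3.73 ± 0.41, a T-box factor of cytotoxic cells, and ZNF683 (Hobit) at 7.05 ± 0.51.

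Of the granule and lysosome proteases, 4 of the 5 tested were higher and LGMN was lower (-2.69 ± 0.76). CTSW, a cathepsin of cytotoxic cells, rose by 3.30 ± 0.25, CTSD by 3.15 ± 0.26 and CTSC, which activates granzyme precursors, by 2.20 ± 0.27 on the log2 scale. CTSC stood at 394 to 703 CPM in the 7 TALL-104 libraries and 47.9 to 148 CPM in Jurkat. Of the inhibitors, CSTB was higher (1.38 ± 0.27) and CST3 lower (-5.32 ± 0.75), and SERPINB9, which protects a killer cell from its own granzyme B, did not pass the filter. Genes of release split 7 higher, 2 lower and 6 not called. VAMP8, a fusion protein of secretory lysosomes, had an estimate of 7.16 ± 0.28, but reached the filter's limit in no Jurkat library, so its direction was fixed by the filter. RAB27A, which docks granules at the membrane, rose by 2.49 ± 0.26, while RAB37 had a log2 difference of -1.72 ± 0.53.

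Sorting and granule membrane genes split 4 higher, 3 lower and 5 not called. CD63, a tetraspanin of the granule membrane, rose by 2.06 ± 0.27 on the log2 scale, and SORT1 was lower (-1.78 ± 0.62). LAMP3, a lysosomal membrane protein, had no UMI among the 613527 human UMIs of TALL-104 cells, which allows up to 4.89 CPM over all libraries, and stood at 7.35 to 24.4 CPM in Jurkat. With all libraries pooled it was at least 2.97-fold higher in Jurkat. Of the enzymes that build the sugar chains of serglycin, CHPF (2.16 ± 0.39) and CHPF2 (1.46 ± 0.42) were called higher, CHST11 was lower (-0.79 ± 0.31) and 6 of the 9 tested were not called. CHPF and CHPF2 passed the filter only with the help of TALL-104, reaching its limit in 6 of 7 Jurkat libraries, and of the 7 that would have passed on Jurkat alone 0 were higher and 1 lower. TNFSF10, the death ligand TRAIL, was the 1 death ligand or cytokine tested over all kits and was higher (3.05 ± 0.25). In 3′ v3, 3 of the 4 tested of that group passed the filter only through TALL-104, so their being higher was fixed by it, with FASLG at 22.5 to 36.9 CPM in TALL-104 and at most 0.203 CPM in Jurkat.

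By kit, 7 of the 58 pathway genes that passed the filter in 5′ v1 were called higher by edgeR's test, beside 1.43% of all genes. The 7 were BHLHE40, CTSC, CTSD, CTSW, HOPX, STAT4 and VAMP8, chosen for being called. Their log2 differences ran from 1.99 to 8.38 in 5′ v1, HOPX aside, whose Jurkat libraries were at 0 there. BHLHE40, HOPX, STAT4 and VAMP8 passed the filter only with TALL-104. Within 3′ v3, against the shares of all genes given above, the roles split as follows. Proteases were 6 higher and 1 lower of 7 tested, inhibitors 2 higher and 1 lower of 3 tested, sorting and membrane genes 4 higher and 2 lower of 12 tested, genes of release 10 higher and 1 lower of 17 tested and enzymes of sugar chains 4 higher and 1 lower of 10 tested. Of the genes higher, 2, 1, 0, 3 and 1 passed the filter only with TALL-104.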

How the data were processed

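The authors ran Cell Ranger (version 3.0.2 per the study's methods) against a joint hg19 and mm10 reference and deposited, per library, an unfiltered matrix of UMI counts per gene and barcode. The methods also describe downsampling of reads to equalise the kits, and they name this Cell Ranger version for the downsampled reads. Whether the deposited matrices are from that run is not given in the sources used here. The preparation of each library came from the study's sample summary. From these counts, human barcodes were assigned to a line by the rule given above, and UMIs were summed per library and line. No doublet caller was run, so pairs of human cells stay in. The 80% limit removes pairs of both species only where human UMIs make up 80% or less.

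Sums of all human genes were tested with edgeR 4.0.16 (TMM scaling, filterByExpr with a minimum count of 10, glmQLFit and glmQLFTest, the library as block because both lines of a library share its mixture and run) under R 4.3.3, with Benjamini-Hochberg adjustment over all genes tested and calls at 0.05. The 4 rule genes were left out of the tests. DESeq2 1.42.0 served as an alternative. The scripts were tested on simulated data. Thinning to 1000 UMIs used a fixed seed. Like genes were ranked among genes with a UMI in at least 10% of thinned TALL-104 cells of each 3′ v3 library. Values of pathway genes were given for up to 3 called genes per role with the largest change, and those named beyond that (CTSC, EOMES, ZNF683, FASLG, SERPINB9) were chosen after their values were seen. Counting intervals are exact at 95%, a count of 0 allows up to 3 counts, and both cover counting error only. Members and lists were chosen with earlier results of these data known.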

Additional observations from a re-analysis of the deposited data

Results flagged for a closer look

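HOPX, a transcriptional cofactor of cytotoxic cells on the pathway list, was called by the test of the interaction of line and kit, at -5.77 ± 1.32 on the log2 scale (adjusted p = 0.0124, edgeR). It was the 1 gene called of 52 on that list tested there, beside 0.171% of all genes, and reached the filter's limit in no Jurkat library of either kit, so it entered the test through TALL-104. TALL-104 stood at 304, 169.8, 320.4 and 307 CPM of HOPX in 3′ v3 replicates 1 to 4 and at 372 and 98.6 CPM in 5′ v1, so its levels overlapped between the kits. Jurkat had 19, 3, 47 and 12 HOPX UMIs in 3′ v3 and none in either 5′ v1 library, so the fitted difference rests on a group at 0 and has no bound as a fold. Of 20 groups of 4 libraries checked for a library far from the others, none stood apart.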

How the results depend on the processing

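Of the genes called over all kits (3774), the count was 813 with cells assigned from CD8A and CD8B alone, 1091 with cells thinned to 1000 UMIs and 6652 with no CD8 UMI required, the last chosen after seeing the data. In 3′ v3 (3949) the counts were 813, 1305 and 7152 under the same settings, 1668 with over 95% human UMIs and 1741 with a TALL-104 threshold of 0.5%. In 5′ v1 (318) they were 66 thinned, 3240 with no CD8 UMI required, 143 at 0.5% and 991 with no replicate block, a fit that leaves out the pairing of both lines by library and also called PRF1 (4.70). The interaction of line and kit (16) gave 39 with library size alone, 9 at 0.5%, 123 with no CD8 UMI required and 50 with preparation G alone. Kit in TALL-104 (62) gave 5 with libraries of a preparation summed, 383 with no CD8 UMI required, and 153 and 343 with preparation F or G alone. Leaving out 1 library gave 3103 to 3894 calls over all kits, 3153 to 3638 in 3′ v3, 6 to 24 for the interaction (9 without 3′ v3 replicate 2, 6 without replicate 4) and 4 to 97 for kit in TALL-104 (4 and 17 without 5′ v1 replicates 1 and 2, 97 and 40 without 3′ v3 replicates 1 and 2).

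GZMA and SRGN, and GZMM within each kit, which passed the filter on Jurkat alone, kept their direction between the lines under every setting run. The direction of GZMK was fixed by the filter. PRF1, and GZMM over all kits, passed it only with the help of TALL-104, so none of these directions is read as stability. With no filter, GZMH in 5′ v1 had no TALL-104 UMI and an estimate of -5.46 ± 29.79, the reverse of its sign in 3′ v3. In the interaction, GZMA turned to -0.012 with no CD8 UMI required, and without 5′ v1 replicate 1 GZMK, GZMM and SRGN turned to 0.79, 1.48 and 0.58 (at the other end, -4.13, -0.86 and -0.73 without replicate 2). GZMK was called in 8 of 20 alternatives of the interaction and SRGN in 1. In the main fit GZMK entered through TALL-104 and rested on 2 and 5 Jurkat UMIs in 5′ v1. In TALL-104 between kits, SRGN turned to -0.036 with over 95% human UMIs, -0.36 with no CD8 UMI required and -0.17 with preparation G alone, while GZMA was called in 6 settings, PRF1 in 2 and GZMK in 1. The cause of these changes was not tested. The median Fano factor over 5 members outside the rule moved from 1.20 to 1.43 at 2000 UMIs per cell. Under the CD8-only rule TALL-104 held 3672 CPM of NKG7 and 1106 of CST7, and Jurkat 207 and 96.5. Leaving out a library within 5′ v1 left no residual degrees of freedom and was not run as a test, and the CD8-only rule left no TALL-104 cell in 5′ v1 or 3′ v2. GZMB and GZMH rested on a few UMIs per library, and GNLY on a few cells.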

Other observations

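Before thinning and with barcodes lacking a CD8 UMI included, GZMB was found in 10 of 41 cells of 3′ v2, in 5 of 70 and 2 of 30 of 5′ v1, and in 8, 11, 11 and 24 of 638, 243, 1053 and 595 of 3′ v3. A single cell of 5′ v1 replicate 2 held 26 of that library's 27 GZMB UMIs. For GZMH, a single cell of 3′ v3 replicate 3 held 14 of 34 UMIs, and the next held 2. These cells were chosen after their values were seen.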
